A study of Caenorhabditis nigoni and Caenorhabditis briggsae with 14 samples.

Results

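The 72 genes described here had more messenger RNA in males than in the female library of the nematode Caenorhabditis nigoni, with a smaller or no male excess in its close relative C. briggsae. They were chosen from 23439 genes by their CPM, the count of a gene per 1000000 counts of its library. A gene was taken when it had a male mean of at least 10 CPM in both species and a male to female ratio of at least 4 in C. nigoni and below 2 in C. briggsae. The ratio is the mean of 3 male libraries plus 1 CPM, divided by the female library plus 1 CPM. Of 7430 genes with at least 10 CPM in males of both species, 1369 reached a ratio of 4 in C. nigoni. Of these, 1195 also reached 4 in C. briggsae, 102 had a ratio of 2 to 4 there, and 72 had a ratio below 2.

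Whole young adult worms were sequenced, 300 animals pooled per library. JU1421 is a wild-type fertile strain of C. nigoni and AF16 a wild-type fertile strain of C. briggsae, each with 3 male libraries and 1 library labelled female. ZZY10307 and ZZY10330 are sterile males, 3 libraries each, that carry a C. briggsae stretch of the X chromosome in a genome that is mostly C. nigoni. The stretch runs from 4.5 to 12.2 Mb in ZZY10307 and from 16.4 Mb to the chromosome end in ZZY10330. These males were sons of introgression-carrying females and JU1421 males, picked by the green transgene cbr-myo-2::GFP, driven by a promoter of pharyngeal muscle, which the labels do not give for JU1421 or AF16. The labels name no treatment for any group. Gene counts per library ran from 2372653 to 3785106. No label ties the replicates to separate cultures, and the spread behind each p-value may therefore be technical.

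C. nigoni has males and females, whereas XX animals of C. briggsae are ordinarily self-fertile hermaphrodites, which make a store of sperm before they turn to making oocytes. In these worms much of the RNA that sets males apart comes from the sperm-producing germ line, and the rest from male nerves, muscles and glands. The AF16 library is labelled female, and the labels do not say whether its animals were hermaphrodites. The files list genes by WormBase identifier and do not pair identifiers with names, so the genes have no stated function or position here, and the tissue could not be checked against named markers. Whole worms also do not tell fewer cells of a type from less RNA per cell.

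The label of male bias in C. nigoni only holds as a range and not as a separate class. The ratio in JU1421 ran from 4.01 to 928, with a median of 5.59: 29 genes lay between 4 and 5, 29 between 5 and 10, and 14 at 10 or more. In AF16 it ran from 0.369 to 1.98, with a median of 1.53. Only 13 genes were lower in AF16 males than in the AF16 female library, 20 had a ratio of 1 to 1.5 and 39 a ratio of 1.5 to 2. Most of the 72 thus leaned to males in AF16 as well, short of the limit. These values chose the genes and are given as a description.

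**Figure D1:**
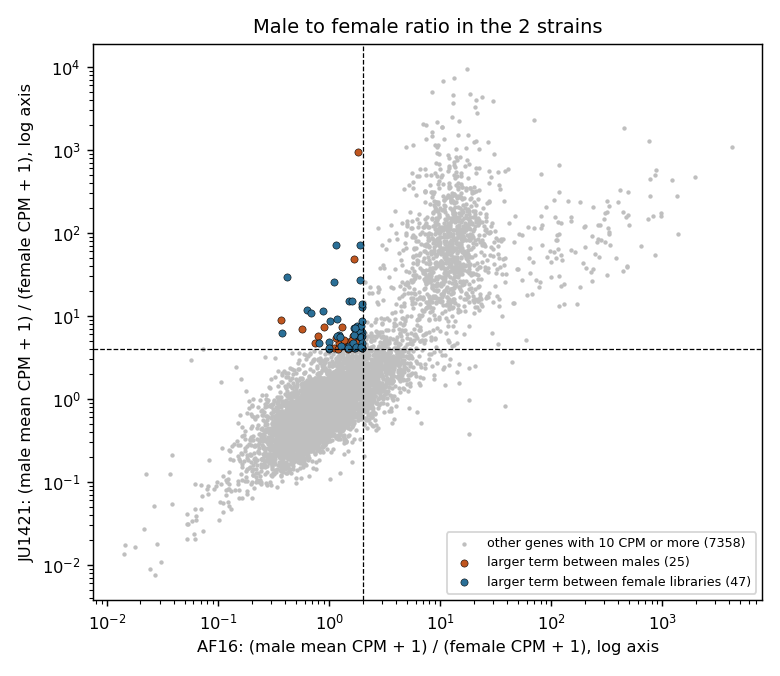
Male to female ratio in AF16 (horizontal, log axis) against JU1421 (vertical, log axis) for genes with a male mean of at least 10 CPM in both strains, 1 point per gene. Dashed lines mark the limits of 2 and 4; the 72 coloured genes lie above and left of them, next to the main cloud and not apart from it, and most of the 1195 genes male-biased in both strains lie to the upper right.

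Genes close to the limits show how fine the selection is. WBGene00040654 was just inside, with a JU1421 ratio of 4.01, and WBGene00040075 just outside, with 3.998. WBGene00039345 had an AF16 ratio of 1.98 and was taken, while WBGene00041478 had 2.01 and was not. On the limit of 10 CPM, WBGene00041310 stood at 10.5 CPM in JU1421 males and was inside, and WBGene00036001 at 9.77 CPM was outside. WBGene00026050 stood at 10.5 CPM in AF16 males and WBGene00027668, left out, at 9.62 CPM.

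A minority of the 72 held both limits library by library. In 43 genes each of the 3 JU1421 male libraries gave a ratio of at least 4, in 44 each of the 3 AF16 male libraries gave a ratio below 2, and in 27 both held. The single female libraries set the other side. With the upper 95% Poisson limit of the JU1421 female count in place of the count, 36 genes kept a ratio of 4, and with the lower limit of the AF16 female count 37 stayed below 2. Both held in 19 genes. These limits cover counting error only, and no test between the sexes was made, since the female libraries have no replicates. The labels give an amount of RNA, 300 ng, for the male libraries alone, so a difference in preparation between male and female libraries cannot be told apart from sex.

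By their medians, the 72 genes were low in C. nigoni females, high in C. nigoni males and in between in both sexes of C. briggsae. Their median level was 7.17 CPM in the JU1421 female library and 46.8, 49.7 and 66.7 CPM in the 3 JU1421 male libraries. In the AF16 female library it was 25.03 CPM, and in the AF16 males 29.4, 28.6 and 26.4 CPM. In these medians the AF16 sexes lay close together, above the JU1421 female and below all JU1421 male libraries. The rule asks for a high sex ratio in JU1421 and a low one in AF16, so this order is a description. Single genes departed from it, as given below for WBGene00041310 and WBGene00032570. The median of all 7430 genes with at least 10 CPM was similar in these groups, at 46.3 and 44.1 CPM in the JU1421 and AF16 female libraries and on average 43.2 and 46.6 CPM in the males. No count was seen in the JU1421 female library for 3 of the 72 genes, which allows up to 0.878 CPM at 3 counts, or 1.08 CPM by the 2-sided 95% Poisson limit used for the ratios.

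The difference in sex ratio between the strains can be split into 2 terms that add up on the log2 scale. One is the AF16 over JU1421 ratio of the female libraries, the other the JU1421 over AF16 ratio of the males, each with 1 CPM added. The female term had a median of 1.39 and the male term a median of 0.66. The AF16 female library stood above the JU1421 one in 65 of 72 genes, by at least 2 times in 49. JU1421 males stood above AF16 males in 54 of 72, by at least 2 times in 28, and 11 genes had at least 2 times in both terms. For 47 genes the female term was the larger, and for 25 the male term. The rule fixes that the sum of the terms is above 1, so their size together is no finding. The same counts over the 7430 genes are not given here. By summed share of gene counts, a higher AF16 female level was not particular to the 72. They took 0.130% in the JU1421 female library and 0.320% in the AF16 one. Genes male-biased in both strains took 0.267% and 1.97% in this order, and the 7430 genes 88.4% and 85.0%.

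The 2 kinds of gene differed in where they sat. The 47 genes with the larger female term had median levels of 3.81 CPM in the JU1421 female library, 22.97 CPM in the AF16 one, 33.03 CPM in JU1421 males and 25.2 CPM in AF16 males. Their lowest median was thus that of the JU1421 female library, but not every gene was scarce there, with WBGene00026073 at 109.5 CPM and WBGene00026844 at 92.8 CPM. The 25 genes with the larger male term had medians of 20.8 and 26.4 CPM in the JU1421 and AF16 female libraries, 135 CPM in JU1421 males and 31.4 CPM in AF16 males. Their highest median was that of C. nigoni males. These same values define the split. All libraries are counted on 1 set of identifiers, and which genome that set comes from is not stated in the labels. Whether reads of both species map to it equally well was not tested.

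**Figure D2:**
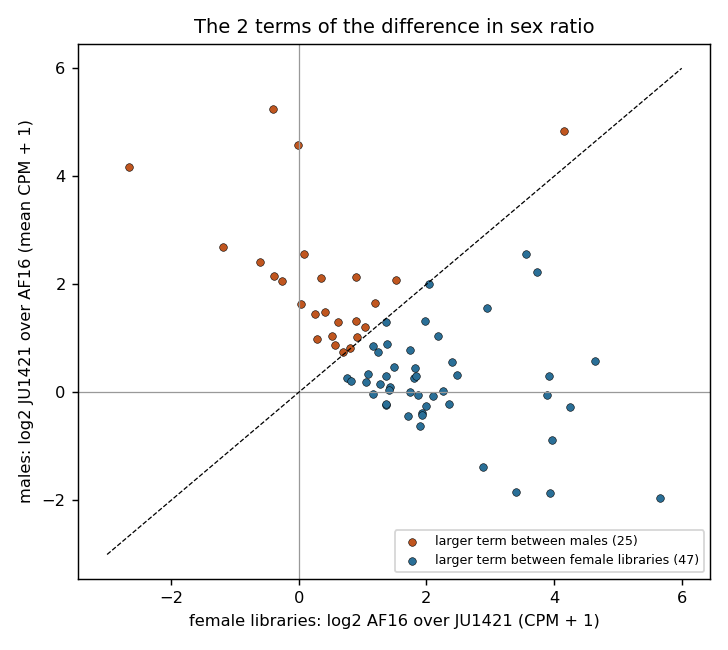
The 2 terms of the difference in sex ratio for the 72 genes, as log2 ratios of CPM plus 1: AF16 over JU1421 in the female libraries (horizontal) and JU1421 over AF16 in the males (vertical). Above the dashed line of equal terms lie 25 genes and below it 47; a few genes have a negative value in one term and a large one in the other.

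The extremes of the female term show opposite patterns. WBGene00041310 had no count in the JU1421 female library and 49.7 CPM in the AF16 one. In males it stood at 9.81, 8.22 and 13.4 CPM in JU1421 and at 27.0, 46.1 and 58.0 CPM in AF16. It was thus higher in C. briggsae in both sexes, with a JU1421 ratio of 11.5 and an AF16 ratio of 0.881. WBGene00032570 was the reverse, with 48.6 CPM in the JU1421 female library and 6.86 CPM in the AF16 one, and with 216.7 ± 51.0 CPM in JU1421 males (SD, n = 3) against 11.02 ± 5.42 CPM in AF16 males. These 2 genes were chosen after their values were seen.

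The 6 genes with the highest level in JU1421 males held 46.2% of all counts of the 72 genes there, and 26.9% in AF16 males. WBGene00023742 was the most abundant. It stood at 1487, 2041 and 1572 CPM in JU1421 males, 34.6 CPM in the JU1421 female library, 59.5, 41.0 and 31.6 CPM in AF16 males and 26.1 CPM in the AF16 female library. It was thus a gene of C. nigoni males, low in the other 3 groups of fertile animals. In sterile males it lay in between, at 394, 260.4 and 325 CPM in ZZY10307 and 692, 546 and 719 CPM in ZZY10330.

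WBGene00087031 had no count in the JU1421 female library and stood at 885, 1115 and 779.9 CPM in JU1421 males. In AF16 it stood at 29.6, 34.2 and 30.1 CPM in males and 16.8 CPM in the female library, so both terms were large. ZZY10307 had 143, 119.9 and 113 CPM, and ZZY10330 had 411, 234 and 562 CPM. The sterile strains do not overlap each other, the JU1421 males or the AF16 males in this gene.

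WBGene00041039 stood at 1107, 825 and 761 CPM in JU1421 males, 100.7 CPM in the JU1421 female library and 100.5 CPM in the AF16 one. In AF16 males it was at 44.2, 30.4 and 34.6 CPM, below the female library of that strain. This gave the lowest AF16 ratio of the list, 0.369, with equal female levels in the 2 species. Sterile males kept between the parents, at 347, 336 and 366.5 CPM in ZZY10307 and 616, 457 and 758 CPM in ZZY10330.

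The other 3 of the 6 differed less between males of the parents. WBGene00033674 stood at 577 ± 71.2 CPM in JU1421 males and 232 ± 47.3 CPM in AF16 males (SD, n = 3), with 44.8 and 116.9 CPM in the female libraries. WBGene00026073 stood at 451 ± 46.4 CPM in JU1421 males and 404 ± 55.4 CPM in AF16 males, with 109.5 and 267 CPM in the female libraries. WBGene00026844 stood at 406 ± 34.9 and 403 ± 6.98 CPM in males, with 92.8 and 314 CPM in the female libraries. In the last 2 genes the males of the parents overlapped, and the strains parted in the female libraries alone. They were also the 2 genes with the highest level in the AF16 female library, followed by WBGene00033957 with 187 CPM there, 44.8 CPM in the JU1421 female library, 285 ± 41.2 CPM in JU1421 males and 70.5 ± 24.9 CPM in AF16 males.

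**Figure D3:**
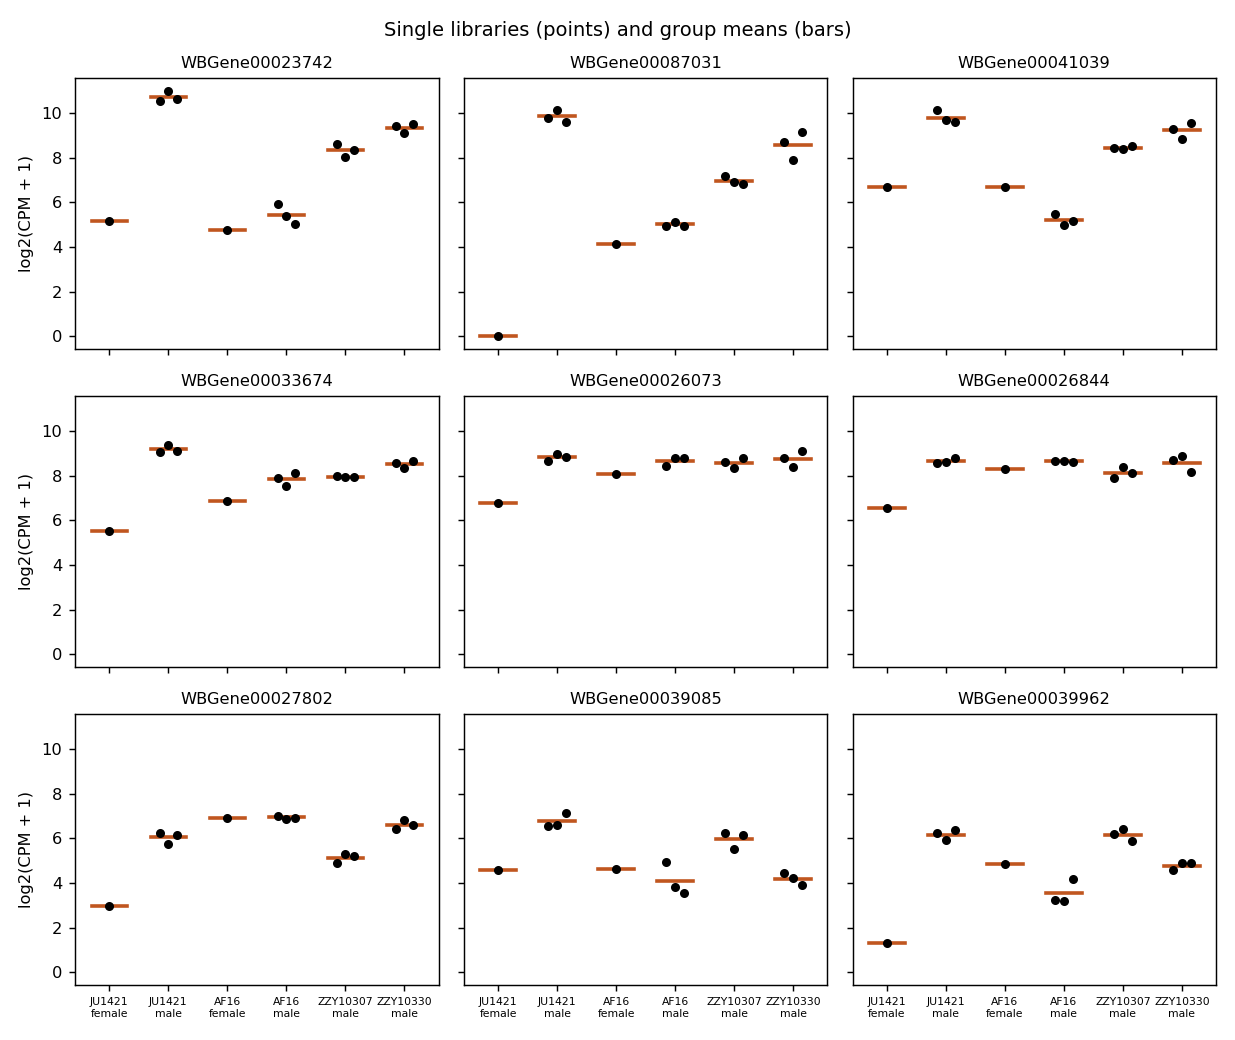
Levels of 9 of the genes in all 14 libraries, as log2 of CPM plus 1: the 6 highest in JU1421 males and 3 that differ between the sterile strains. Points are single libraries and bars group means. WBGene00023742, WBGene00087031 and WBGene00041039 are high in JU1421 males, low in AF16 males and in between in sterile males. WBGene00026073 and WBGene00026844 overlap between JU1421 and AF16 males. Both pass as lower than JU1421 in ZZY10307, WBGene00026073 with libraries that overlap on this scale (edgeR adjusted p = 0.0402).

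The lowest AF16 ratios belonged to WBGene00041039, WBGene00033957 and WBGene00039962, at 0.369, 0.38 and 0.418. In AF16, WBGene00039962 had 28.1 CPM in females and 8.45, 8.14 and 16.9 CPM in AF16 males, against 1.46 CPM in the JU1421 female library and 71.2 ± 10.4 CPM in JU1421 males (SD, n = 3). Its bias thus pointed to opposite sexes in the 2 strains. The highest AF16 ratios, each 1.98, belonged to WBGene00033674, WBGene00028618 and WBGene00039345.

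By likeness of pattern over the 14 libraries, none of the genes nearest to WBGene00023742 was among the 72. Of 12562 genes with at least 10 CPM in a library, WBGene00042736, WBGene00029764 and WBGene00042414 had the highest correlations with it, with Pearson's r of 0.993, 0.990 and 0.989 on log2 CPM plus 1. They stood at 130.1, 1043 and 90.5 CPM in JU1421 males and at 0.217, 3.03 and 0.217 CPM in AF16 males, with no count in the JU1421 female library. They too were high in JU1421 males and intermediate in sterile males, and were below the limit of 10 CPM in AF16 males. The libraries share groups and scaling, and r is a description.

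Sterile males were next set beside the fertile parents. In sum, the 72 genes took 1.05, 1.09 and 1.08% of gene counts in JU1421 males and 0.414, 0.443 and 0.430% in AF16 males. They took 0.617, 0.669 and 0.658% in ZZY10307 and 0.755, 0.757 and 0.784% in ZZY10330. In the female libraries the share was 0.130% in JU1421 (exact 95% binomial interval 0.126 to 0.134%) and 0.320% in AF16 (0.313 to 0.326%). ZZY10330 thus lay above ZZY10307, and no 2 of the 4 male groups overlapped. The 6 genes highest in JU1421 males held 26.5% of the counts of the 72 in ZZY10307 and 37.3% in ZZY10330. The difference between the sterile strains in the sum thus rests in part on those 6 genes. Both sterile strains lay between the males of the parents, whose distance is set by the choice of genes, so that place is a description. The genes male-biased in both strains took 31.0% in JU1421 males, 28.4% in AF16 males, 10.3% in ZZY10307 and 16.7% in ZZY10330. In the female libraries they took 0.267% in JU1421 and 1.97% in AF16. The difference between the lists was not tested.

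**Figure D4:**
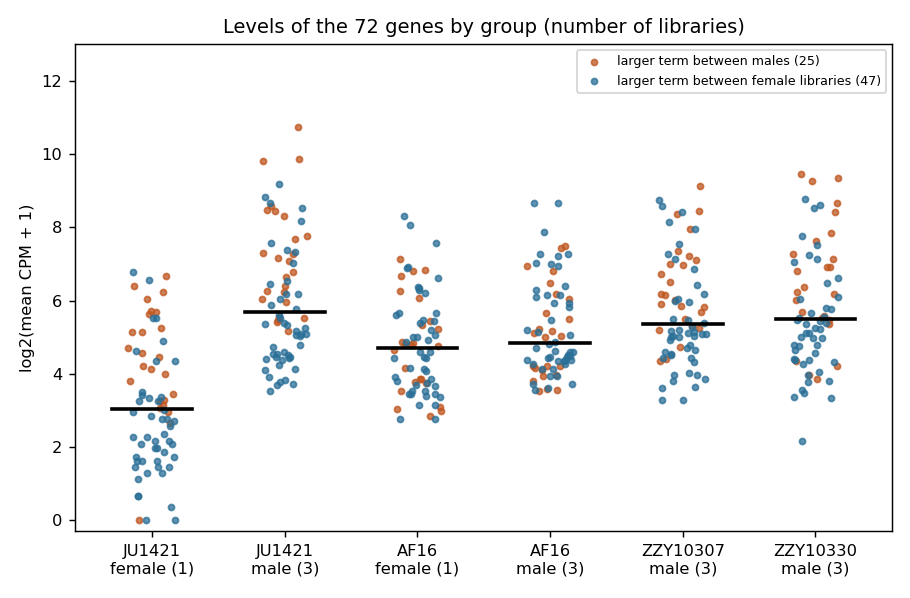
Levels of the 72 genes in 6 groups, as log2 of the mean CPM plus 1, 1 point per gene with the number of libraries in brackets; bars are medians over genes. By medians on library totals, the JU1421 female library is lowest and JU1421 males highest. Both sterile strains lie between JU1421 and AF16 males on this scale.

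The comparison of the 2 sterile strains uses no library of the rule, and it asks whether the genes differ between these strains. Strain and exchanged stretch of the X chromosome go together, so the stretch cannot be told apart from other differences between the strains. Whether reads from the C. briggsae stretches were counted equally well was not tested. By the quasi-likelihood test of edgeR, 13 of 72 genes were higher in ZZY10330 than in ZZY10307 and 5 lower, at an adjusted p below 0.05, so that 18 changed and 54 did not pass. Over all 13289 genes tested, 5.07% were higher and 3.44% lower, or 8.51% in either direction. Among the 7430 genes with at least 10 CPM in males of both species, 7.67% were higher and 5.03% lower, against 18.1% and 6.94% of the 72. The median log2 fold change was 0.38, against 0.02 over all genes tested. Genes male-biased in both strains had 226 of 1195 higher and 4 lower, with a median of 0.46, that is 18.9% higher and 0.335% lower. The difference between the lists was not tested.

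The strongest rises, by adjusted p and with no overlap between libraries, were WBGene00027802 and WBGene00087031. WBGene00027802 stood at 28.5, 38.3 and 36.0 CPM in ZZY10307 and at 83.9, 112.5 and 95.7 CPM in ZZY10330, a log2 difference of 1.66 (SE 0.23, edgeR adjusted p = 7.73e-05). ZZY10330 lay between JU1421 males, at 65.5 ± 11.7 CPM, and AF16 males, at 121 ± 6.40 CPM (SD, n = 3), and ZZY10307 lay below both. In WBGene00087031, whose libraries are given above, the log2 difference was 1.86 (SE 0.28, edgeR adjusted p = 0.000214). Of the 6 genes highest in JU1421 males, 5 passed as higher in ZZY10330 and none as lower. Among these, WBGene00026844 passed with overlapping libraries (edgeR adjusted p = 0.0401). WBGene00026073 did not pass (log2 difference 0.37, edgeR adjusted p = 0.346). Among the other 66 genes, 8 were higher and 5 lower, with a median log2 difference of 0.24.

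On the other side stood WBGene00039085 and WBGene00039962. WBGene00039085 had 74.8, 44.2 and 70.7 CPM in ZZY10307 and 20.9, 17.7 and 13.9 CPM in ZZY10330, a log2 difference of -1.70 (SE 0.35, edgeR adjusted p = 0.00405). ZZY10330 overlapped the AF16 males, at 17.7 ± 10.3 CPM, and ZZY10307 lay between these and JU1421 males, at 109.4 ± 27.1 CPM (SD, n = 3). WBGene00039962 had 71.4, 85.0 and 58.2 CPM in ZZY10307 and 22.7, 28.8 and 28.2 CPM in ZZY10330, a log2 difference of -1.27 (SE 0.31, edgeR adjusted p = 0.0129, and 0.0665 without ZZY10307 replicate 2). Its ZZY10307 libraries overlapped those of JU1421 males.

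One call rested on libraries that differed widely among themselves. WBGene00037984, chosen after its values were seen, had 81.5, 788 and 416 CPM in ZZY10307 and 20.04, 58.7 and 21.9 CPM in ZZY10330. It was among the 5 lower genes. JU1421 males ranged from 93.8 to 218 CPM in this gene and AF16 males from 47.5 to 116.4 CPM.

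These counts changed when single libraries were left out, which also leaves the test with fewer libraries in a group. The median log2 fold change of the 72 then ran from 0.29 to 0.40. Without ZZY10307 replicate 1 there were 8 higher and 3 lower, and without ZZY10307 replicate 3 there were 6 and 2, while 3 were lower without ZZY10307 replicate 2 or without ZZY10330 replicate 1. Scaled by total counts alone, 9 were higher and 6 lower, and the all-gene median shifted from 0.02 to -0.13. Relative to the median of all genes, the median of the 72 was 0.36 with TMM factors, which correct library totals for differences in composition, and 0.35 with total counts alone.

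Against JU1421 males, more of the genes passed as lower than as higher in both sterile strains, and most did not pass. JU1421 males entered the rule, and a high level in them was its condition, so a lower value elsewhere is favoured by the choice and the counts are a description. In ZZY10307, 29 of 72 genes were lower and 3 higher, where 13.5% of all genes tested were lower and 9.29% higher. The median log2 fold change was -0.77 against 0.09 over all genes. In ZZY10330, 26 were lower and 2 higher, where 16.1% of all genes were lower and 12.6% higher, with a median of -0.46 against -0.03. Both comparisons use the same JU1421 libraries.

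Genes male-biased in both strains, were held to the same limit in JU1421. Of these, 966 of 1195 were lower in ZZY10307 and 904 in ZZY10330, with medians of -1.70 and -1.33. The 102 genes with an AF16 ratio of 2 to 4 were nearer the 72, with 33 and 25 lower and medians of -0.59 and -0.19. The mirror list, 40 genes with a ratio of at least 4 in AF16 and below 2 in JU1421, had 7 and 4 lower, 9 and 17 higher, and medians of 0.28 and 0.81. No test of the difference between these lists was made.

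**Figure D5:**
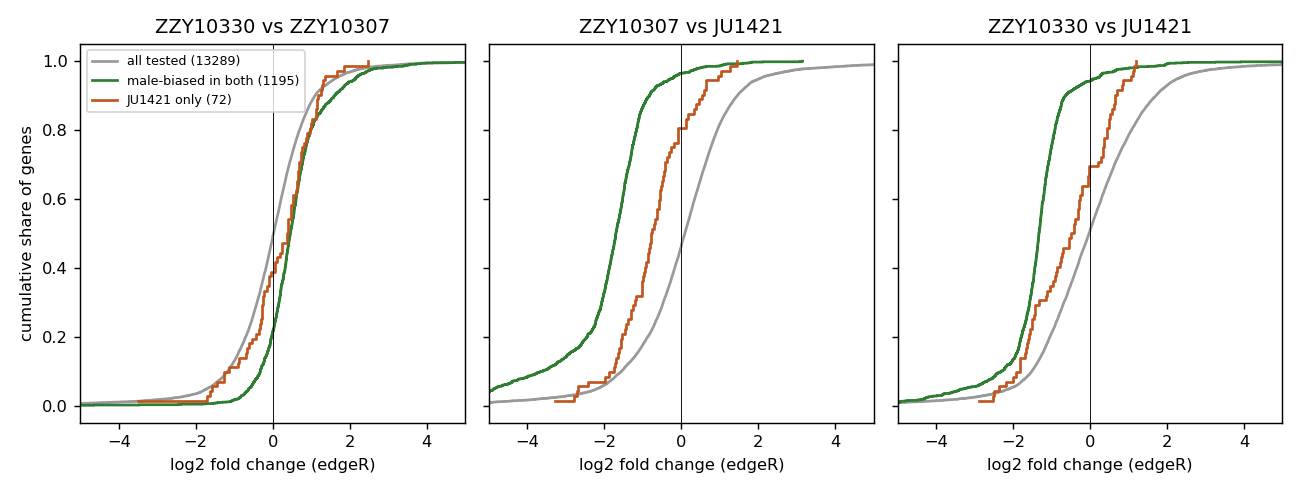
Cumulative share of genes by log2 fold change from edgeR in 3 comparisons, for all genes tested, for genes male-biased in both strains and for the 72 genes; the horizontal axis is shown from -5 to 5. The curve of the 72 lies between the others against JU1421, and close to that of shared male-biased genes in the right part of the comparison between sterile strains.

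The calls differed between the 2 kinds of gene. Of the 25 genes with the larger male term, 17 were lower than JU1421 in ZZY10307 and 15 in ZZY10330, with medians of -1.25 and -1.04. Of the 47 with the larger female term, 12 and 11 were lower, with medians of -0.56 and -0.31. The male term is built from the JU1421 male mean itself, so this split carries the selection with it. Of the 6 highest genes, 6 were lower in ZZY10307 and 4 in ZZY10330, where 13.5% and 16.1% of all genes tested were. These 6 were picked by their level in JU1421 males, which favours a lower value elsewhere, so the counts are a description. In ZZY10307, WBGene00026073 passed with libraries that overlapped those of JU1421 (edgeR adjusted p = 0.0402).

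WBGene00087031 and WBGene00023742 had the lowest adjusted p among genes lower in ZZY10307, with log2 fold changes of -3.29 (SE 0.29, edgeR adjusted p = 5.93e-08) and -2.78 (SE 0.25, adjusted p = 6.48e-08). In ZZY10330 they were WBGene00039085, at -2.87 (SE 0.36, edgeR adjusted p = 8.65e-06), and WBGene00024008, at -2.51 (SE 0.37, adjusted p = 4.19e-05). WBGene00024008 stood at 62.7, 62.7 and 68.5 CPM in JU1421 males, 7.84, 17.97 and 14.3 CPM in ZZY10330 and 14.5 ± 4.42 CPM in AF16 males (SD, n = 3). ZZY10330 was thus at the level of AF16 males in this gene, and ZZY10307, at 37.6, 32.8 and 36.4 CPM, lay between.

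A few genes rose against JU1421, although the choice of genes favours the opposite. WBGene00026431 stood at 30.6, 50.01 and 54.8 CPM in JU1421 males, 17.6 ± 6.16 CPM in AF16 males, 92.6, 222 and 176 CPM in ZZY10307 and 106.6, 126 and 123.5 CPM in ZZY10330. It was above both parents in both sterile strains, with log2 fold changes against JU1421 of 1.45 (SE 0.31, edgeR adjusted p = 0.00162) and 1.15 (SE 0.31, adjusted p = 0.00839, and 0.0524 without JU1421 replicate 1). WBGene00087657 had no count in the JU1421 female library and stood at 71.1 ± 10.3 CPM in JU1421 males and 14.4 ± 0.889 CPM in AF16 males (SD, n = 3). In ZZY10330 it had 193, 236 and 117 CPM, a log2 fold change of 1.11 (SE 0.24, edgeR adjusted p = 0.00162), and in ZZY10307 it had 108, 178 and 134 CPM without passing (0.58, adjusted p = 0.0890). WBGene00039121 stood at 21.9, 12.3 and 25.7 CPM in JU1421 males and 51.9, 54.3 and 81.2 CPM in ZZY10307, a log2 fold change of 1.26 (SE 0.38, edgeR adjusted p = 0.0191). That call was lost without JU1421 replicate 2 (adjusted p = 0.101) or ZZY10307 replicate 3 (adjusted p = 0.118).

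The numbers of higher genes are small and move with the scaling. With total counts alone, 5 were higher and 19 lower in ZZY10307, and 10 higher and 23 lower in ZZY10330, while the all-gene median shifted from 0.09 to 0.48 and from -0.03 to 0.20. Relative to that median the 72 stayed at -0.86 and -0.87 in ZZY10307 and at -0.44 and -0.42 in ZZY10330, with TMM and total counts in this order. Leaving out JU1421 replicate 2 or ZZY10307 replicate 3 left 1 higher gene in ZZY10307, and leaving out JU1421 replicate 1 left 1 in ZZY10330. With size factors of DESeq2 type, 6 were higher and 26 lower in ZZY10330.

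Set against the AF16 males, the genes of sterile males went both ways. AF16 males entered the rule too. In ZZY10307, 17 of 72 were higher and 11 lower, where 12.8% of all genes tested were higher and 13.3% lower, and in ZZY10330 23 were higher and 5 lower, where 13.4% and 13.3% were. The median log2 fold change of the 72 was 0.09 in ZZY10307 and 0.38 in ZZY10330, against 0.13 and 0.07 over all genes tested. In the median, the 72 were thus not further above AF16 males in ZZY10307 than all genes were. With total counts alone the split in ZZY10307 was 24 higher and 7 lower, with a median of 0.39 against 0.43 over all genes. There were 7 lower without ZZY10307 replicate 2, and 8 lower in ZZY10330 without its replicate 2. The 25 genes with the larger male term had 13 higher and 1 lower in ZZY10307 and 16 and 0 in ZZY10330, while the 47 others had 4 and 10, and 7 and 5. The males of the parents themselves differed in 37 of the 72 genes, 5 higher and 32 lower in AF16, where 9.23% and 11.2% of all genes were (20.5% in either direction), but that contrast is part of the rule and nothing is read from it.

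By mean CPM, 36 of 72 genes in ZZY10307 and 25 in ZZY10330 lay between the male means of the parents, where 22.2% and 24.0% of the 7430 genes did. In ZZY10307, 17 genes lay above both means and 19 below both, where 50.9% and 26.9% of the 7430 did. In ZZY10330, 23 lay above and 24 below, where 37.2% and 38.7% did. The rule takes genes whose sex ratio differs between the parents, and 54 of the 72 stood higher in JU1421 than in AF16 males. This favours a place between the parents. The means are CPM on library totals. On that scale the all-gene median log2 fold change of ZZY10307 was 0.48 against JU1421 and 0.43 against AF16. With TMM it was 0.09 and 0.13. For ZZY10330 it was 0.20 and 0.21, and -0.03 and 0.07 with TMM. The part of this in the counts was not tested. The most abundant of the 72 in both sterile strains was WBGene00028442, named after its values were seen, with 353, 742 and 567 CPM in ZZY10307 and 524, 987 and 582 CPM in ZZY10330. JU1421 males had 360.4, 419 and 368 CPM, and the gene did not pass against JU1421 in either strain (log2 fold changes of 0.13 and 0.61, edgeR adjusted p = 0.829 and 0.132).

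By the edgeR call against each parent, fewer genes stood outside. Below JU1421 and AF16 males at once were 9 of 72 genes in ZZY10307 (12.5%) and 2 in ZZY10330 (2.78%), where 8.57% and 8.06% of all genes tested were. Above both parents were 3 and 2 genes (4.17% and 2.78%), where 3.51% and 5.34% of all genes were. Lower than JU1421 and higher than AF16 were 7 and 8 genes, where 1.02% and 1.15% of all genes were. The rule does not ask for a higher level in JU1421 than in AF16 males, but 54 of the 72 had it. That favours this pattern. In the 28 genes at least 2 times higher in JU1421 than in AF16 males, ZZY10307 was nearer JU1421 on the log2 scale in 16 and ZZY10330 in 15. Those last counts again use CPM on library totals.

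The genes of sterile males were last set against the C. nigoni female library. The rule chose genes that are low in that library, so a high ratio in any male group is favoured and the counts are a description. With the JU1421 female library as the base and 1 CPM added, the median ratio over the 72 genes was 5.59 in JU1421 males, 4.65 in ZZY10307 and 5.85 in ZZY10330. A ratio of at least 4 was found for 44 genes in ZZY10307 and 46 in ZZY10330, and below 2 for 5 and 10 genes. Of the 7430 genes, 20.6% and 23.03% reached 4 in this order, and 66.6% and 64.4% were below 2. These ratios use CPM on library totals, of which the shared male-biased genes took less in sterile males, as given above, and the part of that in the ratios was not tested.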

How the data were processed

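RNA of whole worms was sequenced as stranded, paired-end mRNA libraries, per the labels' protocols. The authors deposited whole-number read counts per gene for each of the 14 libraries. Trimmomatic and edgeR are named in the submitters' processing notes, without versions; for the aligner, counting tool, genome and annotation the labels name nothing. The deposited tables of repeat counts were not used. Genes carry WormBase identifiers without names, so lists of named genes, cell markers and sequences were not used here.

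The 72 genes, the lists and the tests were chosen with earlier results of these data known. Levels are CPM on raw library totals, and fold changes are on TMM-scaled libraries, so the 2 can differ in size. The 12 male libraries were fitted in 1 model with edgeR 4.0.16 (filterByExpr with a minimum count of 10, TMM, robust glmQLFit, glmQLFTest, R 4.3.3), with 13289 genes tested and Benjamini-Hochberg adjustment over all of them. All 72 genes passed the filter, as their limit of 10 CPM in males implies, and a call is an adjusted p below 0.05. The same steps were run on counts simulated from the fitted spread, with known changes equal in number up and down. That run did not include the composition differences between the groups, and no result here rests on it. Alternatives were RLE size factors, total counts alone, no filter, DESeq2 1.42.0, 2 groups alone, a replicate block, other limits of the rule and leaving out single libraries. Replicates differed by more than sampling noise, with a chi-square per degree of freedom of 7.01 to 25.6. Intervals and floors cover counting error only.

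Genes were named by rule: the 6 highest in JU1421 males, the 3 highest and lowest AF16 ratios, the 3 highest in the AF16 female library, and, per comparison of sterile males, those with the lowest adjusted p and no overlap between libraries. At most 2 were taken per direction, since identifiers have no names.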

Additional observations from a re-analysis of the deposited data

Results flagged for a closer look

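Single genes stood out because they differed between the 2 sterile strains by the edgeR quasi-likelihood test of that difference. WBGene00027802 was higher in ZZY10330 than in ZZY10307 by 1.66 on the log2 scale and WBGene00087031 by 1.86, with all 3 libraries of ZZY10330 above those of ZZY10307 in both genes. WBGene00039085 and WBGene00039962 were lower, with log2 differences of -1.70 and -1.27 and no overlap between libraries. The labels give different stretches of the X chromosome for the 2 strains, and the positions of these genes were not used here.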

How the results depend on the processing

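Between the sterile strains, the median log2 fold change of the 72 genes was 0.43 with RLE size factors, 0.22 with total counts alone, 0.43 with DESeq2 and 0.33 with the 2 groups alone; DESeq2 called 20 higher, and the 2 groups alone gave 3 lower. Against JU1421, total counts alone gave 5 higher, 19 lower and -0.38 in ZZY10307. In ZZY10330, 6 were higher with RLE, 10 with total counts alone, 6 with DESeq2 and 5 with 2 groups alone, and the median was -0.23 with total counts alone and -0.35 with 2 groups alone. Against AF16, total counts alone gave 7 lower and 0.39 in ZZY10307 and 0.53 in ZZY10330, and without a filter 9 were lower in ZZY10330. The cause of these shifts was not tested. With other limits the rule gave 148 genes at a JU1421 ratio of 3, 18 at 8, 33 and 128 at AF16 ratios below 1.5 and 3, and 119 and 43 at male means of 5 and 20 CPM. On TMM-scaled CPM over the 14 libraries it gave 91 genes, 70 of them among the 72. With 2 CPM added it gave 61, of which 58 were among the 72, and with 0.5 CPM added 72, of which 66 were. Without the 10 most abundant genes the summed shares were 0.139, 1.17, 0.354, 0.453, 0.682 and 0.816%, and without the highest of the 72 genes 0.119, 0.902, 0.288, 0.388, 0.593 and 0.696%, in the order JU1421 female, JU1421 male, AF16 female, AF16 male, ZZY10307 and ZZY10330. Leaving out each library in turn gave ranges of 6 to 14 higher, 2 to 5 lower and medians of 0.29 to 0.40 between the sterile strains; 1 to 4, 21 to 28 and -0.82 to -0.65 for ZZY10307 against JU1421; 1 to 3, 22 to 25 and -0.57 to -0.42 for ZZY10330 against JU1421; 15 to 16, 7 to 12 and 0.00363 to 0.22 for ZZY10307 against AF16; and 16 to 25 and 5 to 8 for ZZY10330 against AF16. The rule gave 64 to 79 genes. Same-numbered libraries did not deviate together (correlations of -0.0416 to 0.0277), so the numbers do not pair them; with a replicate block 11 were higher and 5 lower between the sterile strains, 3 and 28 in ZZY10307 and 2 and 26 in ZZY10330 against JU1421, where the latter median was -0.55. Of 12 calls of named genes, each recomputed under 12 alternatives, 3 were lost under at least 1 (WBGene00026431 in ZZY10330 and WBGene00039121 in ZZY10307 against JU1421, and WBGene00039962 between the sterile strains) and 9 were kept under all.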
